A study of Mus musculus and Sus scrofa with 12 samples.

Results

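Gata2, Gata3, Gata4, Gata5 and Gata6 are 5 genes that encode zinc finger transcription factors of the GATA family. They were taken by symbol, as 5 of 21774 protein-coding genes in mouse (RefSeq, GRCm38) and as the 5 genes of the same names in capitals among 20661 protein-coding genes in pig (RefSeq, Sscrofa11.1). All 5 were found in both annotations. Gata6 was set against the other 4, and the 5 genes against all protein-coding genes.

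GATA factors bind DNA at sites built around the letters GATA and open or close chromatin with cofactors such as the FOG proteins, encoded by Zfpm1 and Zfpm2. In mouse, Gata2 is needed for blood stem cells, Gata3 for T cells, sympathetic neurons and the skin, and Gata4 and Gata6 for heart and gut endoderm. In the mouse limb bud, Gata6 is known from the anterior mesenchyme, where it holds down Shh, the gene of the signal that patterns the digits from the posterior side. H3K4me3 lies at the start sites of genes, H3K27ac at active promoters and enhancers, and H3K4me1 at enhancers and beside promoters.

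The data are lists of regions called as bound by each of these 3 marks in the forelimbs of wild-type mouse embryos at E11.5 and of wild-type pig embryos at day 23 of gestation. There were 2 samples for each species and mark, 12 in all, with no treatment or mutation in any group. The assay was ChIPmentation, in which a transposase adds sequencing adapters to chromatin held by the antibody. The design text counts a single biological replicate for pig H3K4me1, whereas the labels name 2 samples. The samples were merged into 1 list for each species and mark, which carries positions but no scores, so the depth is unknown, no value per sample exists and no spread between animals could be given. The lists held 18353 H3K4me3, 20875 H3K27ac and 69962 H3K4me1 peaks in mouse and 18713, 27566 and 103373 in pig. All comparisons here are therefore descriptions with no test. A limb holds many cell types, and a mark present in few cells cannot be told apart from a weaker mark in many.

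Defining markers of the labelled tissue were looked up first. Of 6 forelimb mesenchyme genes, 6 had H3K27ac at a start site in mouse and 5 in pig, among them Tbx5, the forelimb T-box gene. The share over all coding genes was 41.6% in mouse and 46.7% in pig. Of the hindlimb genes Pitx1 and Tbx4, both had H3K4me3 and neither had H3K27ac at a start site in either species.

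The following sequences are shown because the marks at them differed between members or between species. In the mouse Gata2 record, 1 pair of an E-box (CATCTG) and a GATA site (AGATAA) with 8 bases between them was found on either strand over 13142 bases, and in the pig GATA2 record 1 was found over 16488 bases. An intronic element of mouse Gata2 of this kind is known as an enhancer that blood stem cells need. The pair lay at chr6:88203165-88203224 in mouse (GRCm38, plus strand) and at chr13:71993818-71993877 in pig (Sscrofa11.1, plus strand), here with 20 bases on each side and with both sites in capitals.
Mouse Gata2, 9.29 kb from the 5′ end: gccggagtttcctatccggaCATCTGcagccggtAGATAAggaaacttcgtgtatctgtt
Pig GATA2, 12.7 kb from the 5′ end: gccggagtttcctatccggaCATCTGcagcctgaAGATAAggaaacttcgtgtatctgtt
The 2 stretches were the same at 58 of 60 bases, and the differences were G32T and T34A, counted from 1 at the left end with the mouse base first. Both differences lay between the sites, not in them. The mouse pair was inside an H3K4me1 peak that ran from 9.17 to 12.9 kb, with no H3K27ac or H3K4me3 over it. The pig pair had none of the 3 marks, and its nearest H3K4me1 peak was 1884 bp away.

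Promoter windows ran from 250 bases before to 50 bases after a start site. They are shown for pig GATA6 and mouse Gata2, the members with H3K27ac within 1 kb of a start site. Each GATA or TATC is in capitals. Of the 4 pig GATA6 windows, those at 0 and 945 bp are not printed, and they held no GATA or TATC. No H3K27ac peak overlapped the printed mouse Gata2 window itself. The mouse window is from the RefSeq promoter table (GRCm38.p6), where Gata4 and Gata6 were not matched, and the pig windows were read from the Sscrofa11.1 genome.
Pig GATA6, start site 251 bp downstream of the 5′ end (chr6:107282710-107283009, plus strand): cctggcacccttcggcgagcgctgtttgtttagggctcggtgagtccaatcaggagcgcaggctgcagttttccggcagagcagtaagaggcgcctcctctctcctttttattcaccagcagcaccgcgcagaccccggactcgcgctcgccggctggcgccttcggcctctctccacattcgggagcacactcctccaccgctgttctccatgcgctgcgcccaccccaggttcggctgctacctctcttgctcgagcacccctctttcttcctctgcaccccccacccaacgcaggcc
Pig GATA6, start site 1618 bp downstream of the 5′ end (chr6:107284077-107284376, plus strand): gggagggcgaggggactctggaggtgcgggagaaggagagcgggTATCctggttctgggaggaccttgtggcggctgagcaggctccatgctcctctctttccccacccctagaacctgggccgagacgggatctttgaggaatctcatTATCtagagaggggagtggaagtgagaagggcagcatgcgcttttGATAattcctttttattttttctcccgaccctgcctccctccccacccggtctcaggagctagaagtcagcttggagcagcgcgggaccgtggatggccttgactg
Mouse Gata2, start site 4773 bp downstream of the 5′ end (chr6:88198414-88198713, plus strand): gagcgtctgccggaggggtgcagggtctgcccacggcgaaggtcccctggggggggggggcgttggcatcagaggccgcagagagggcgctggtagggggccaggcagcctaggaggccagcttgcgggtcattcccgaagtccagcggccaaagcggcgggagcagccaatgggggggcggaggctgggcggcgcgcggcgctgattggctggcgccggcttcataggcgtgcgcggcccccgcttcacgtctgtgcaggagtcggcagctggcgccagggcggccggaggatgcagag
The pig GATA6 window at 1618 bp held both AGATAA and TGATAA, searched on both strands. AGATAA is in 8.18% and TGATAA in 6.2% of 47596 pig promoter windows, and the 2 motifs have GATAA in common. No other window of the pig GATA2, GATA3, GATA5 and GATA6 start sites, and none of the mouse Gata2, Gata3 and Gata5 windows in the table, held either. Windows of pig GATA4 and of mouse Gata4 and Gata6 were not searched. In mouse, AGATAA is in 9.65% and TGATAA in 7.6% of 21255 windows. None of the member windows searched held TATAAA, which is in 12.6% of mouse and 9.6% of pig windows. The 4 mouse windows in the table had between 67.3% and 73.7% G and C, against a median of 56.3% over all mouse windows. The 4 pig GATA6 windows had between 58.7% and 70.7%, against a median of 60.3% over all pig windows.

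One further pig sequence is shown because it is the only stretch near GATA6 where a mouse distal peak aligned to a pig H3K27ac peak. It is 200 bases of a 554 bp H3K27ac peak about -155 kb from pig GATA6, at chr6:107127471-107127670 (Sscrofa11.1, plus strand), again with GATA or TATC in capitals.
Pig GATA6 distal stretch: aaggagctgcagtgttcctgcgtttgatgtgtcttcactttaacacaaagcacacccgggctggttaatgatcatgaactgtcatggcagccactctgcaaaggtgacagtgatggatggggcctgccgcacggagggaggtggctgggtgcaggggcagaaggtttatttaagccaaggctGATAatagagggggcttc
These bases held TGATAA and not AGATAA. The stretch is part of an alignment of 575 bases with 72.9% identity (E value 1.06e-80) to a mouse H3K4me1 peak that ran from -151 to -147 kb of Gata6 and had no H3K27ac. The pig stretch had H3K4me1 as well as H3K27ac.

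Each of the 5 genes had H3K4me3 at 1 or more of its start sites in both species, and 1 in each species had H3K27ac. A gene was counted as marked where a peak shared 1 bp or more with the 1 kb on each side of any annotated transcription start site. H3K4me3 was at 5 of 5 members in mouse, where 65.0% of all coding genes had it, and at 5 of 5 in pig, where 64.9% had it. At the 5′ end alone, 2 mouse members (Gata5 and Gata6) and 3 pig members (GATA2, GATA5 and GATA6) had it. H3K27ac was at 1 of 5 members in mouse (Gata2), against 41.6% of all coding genes, and at 1 of 5 in pig (GATA6), against 46.7%. H3K4me1 was at 3 of 5 members in mouse (Gata2, Gata4 and Gata6), against 54.7%, and at 5 of 5 in pig, against 61.3%.

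In each species 4 of 5 members had H3K4me3 without H3K27ac at their start sites, and they were not the same 4. This state was found at 24.5% of all coding genes in mouse and 19.9% in pig. In mouse the 4 were Gata3, Gata4, Gata5 and Gata6, and in pig GATA2, GATA3, GATA4 and GATA5. H3K4me1 was added to H3K4me3 without H3K27ac at 2 members in mouse (Gata4 and Gata6), against 17.4% of coding genes, and at 4 in pig, against 16.2%. Among 14946 orthologs with the same symbol and 1 record in each species, 74.7% had H3K4me3 at the start site in both, as all 5 members did. H3K4me3 in both species with H3K27ac in neither was found at 3 members (Gata3, Gata4 and Gata5) and at 15.1% of the orthologs.

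**Figure D1:**
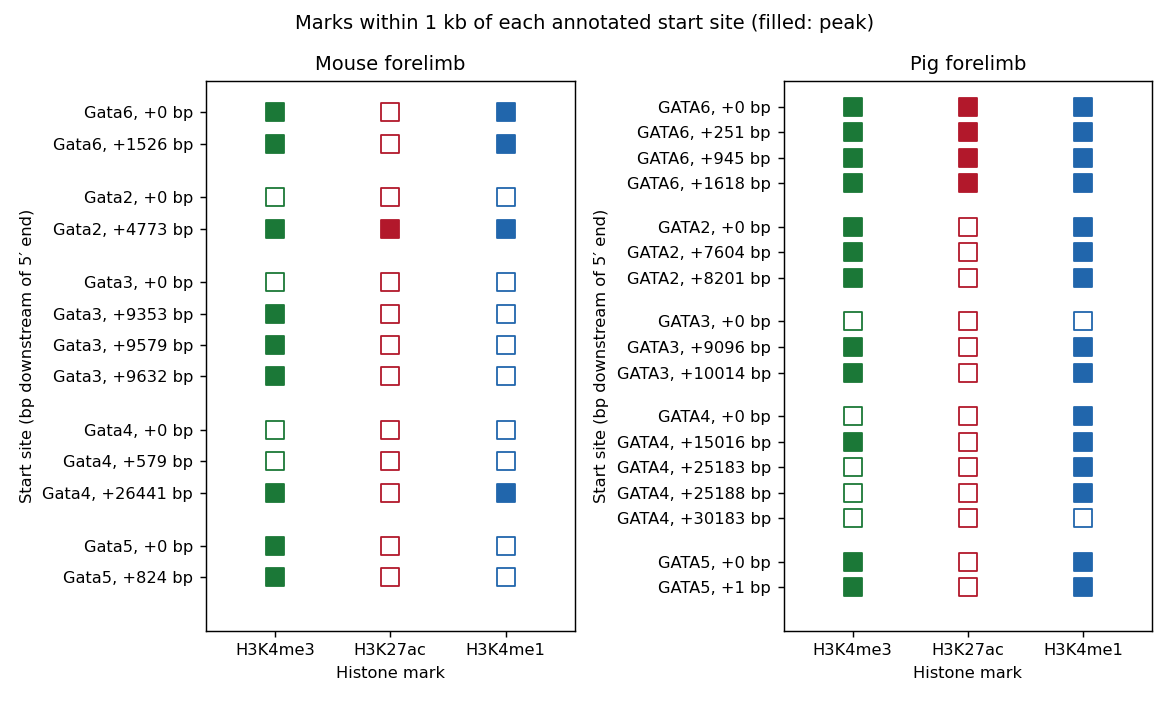
Marks at each annotated start site of the 5 genes in mouse (left) and pig (right) forelimbs. Rows are start sites by distance in bp from the gene's 5′ end, columns are marks, and a filled square means a peak within 1 kb. H3K27ac squares are filled at 1 mouse site, of Gata2, and at all 4 sites of pig GATA6.

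Gata6 differed in marking between the species. Mouse Gata6 is on chromosome 18, bases 11052510 to 11085636 (GRCm38, plus strand), with 2 start sites 1526 bp apart. An H3K4me3 peak of 4318 bp ran from -1.02 to 3.3 kb and covered both. One H3K4me1 peak ended at -0.656 kb, and another ran from 0.421 to 1.64 kb. The nearest H3K27ac peak to any mouse Gata6 start site was 168 kb away, and the gene body held none. Pig GATA6 is at chr6:107282709-107314725 (Sscrofa11.1, plus strand) with 4 start sites over 1618 bp. All 3 marks were within 1 kb of each of the 4. Its H3K27ac peak of 2752 bp ran from 0.178 to 2.93 kb, within an H3K4me1 peak of 6236 bp that ran from -0.938 to 5.3 kb. Pig GATA6 thus lay in wide peaks: its H3K4me3 peak of 3434 bp was at percentile 97.5 of the widths of pig H3K4me3 peaks at coding start sites, and its H3K27ac peak at percentile 95.9. In mouse the H3K4me3 peak of Gata6 was at percentile 89.6. Marks at pig GATA6 are shared with LOC100525229, a coding record on its upstream side whose 5′ end is 0.046 kb inside GATA6, and the lists cannot assign them to one of the genes.

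Gata2 had the only mouse H3K27ac peak within 1 kb of a member's start site. With the start site base alone, the 5′ end alone or the wider 50% of peaks, 0 of the mouse members had H3K27ac. Mouse Gata2 is at chr6:88193891-88207032 (plus strand), with start sites at the 5′ end and 4773 bp downstream, as in the windows above. The H3K27ac peak of 2165 bp ran from 5.19 to 7.35 kb, and its edge was 416 bp from the downstream start site. It lay within an H3K4me1 peak of 5315 bp from 2.07 to 7.38 kb, and an H3K4me3 peak of 4926 bp covered the downstream start site. The 5′ start site had none of the 3 marks within 1 kb. The mouse H3K4me3 peak was wide, at percentile 96.6, while the H3K27ac peak was narrow, at percentile 17.1. Pig GATA2, at chr13:71981139-71997626 (plus strand), had H3K4me3 and H3K4me1 at each of its 3 start sites, at 0, 7604 and 8201 bp. Its nearest H3K27ac peaks were a pair between -24.1 and -20.8 kb, upstream of the gene, which overlapped an H3K4me1 peak from -26.0 to -21.0 kb.

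Gata3 had an unmarked 5′ start site and H3K4me3 at the downstream ones in both species. Mouse Gata3, at chr2:9857078-9887953 (minus strand), had an H3K4me3 peak of 4420 bp over its 3 downstream start sites, at 9353, 9579 and 9632 bp, and no H3K4me1 within 1 kb of them. The nearest H3K27ac peak to a mouse Gata3 start site was 50.4 kb away, and that of pig GATA3 39.6 kb. Pig GATA3, at chr10:63367684-63397977 (minus strand), had H3K4me3 peaks of 1539 and 594 bp beside its downstream start sites, at 9096 and 10014 bp, and none over them: the nearest edges were 610 and 52 bp away. The 594 bp peak was among the narrowest at pig coding start sites, at percentile 1.3. A pig H3K4me1 peak of 5394 bp lay over the start site at 10014 bp. Both species had a further H3K4me3 peak in a Gata3 intron, from 4.27 to 6.68 kb in mouse and from 3.97 to 6.52 kb in pig, and another upstream, from -21.3 to -15.4 kb in mouse and from -9.35 to -7.71 kb in pig.

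Gata4 also had H3K4me3 at a start site inside the gene and not at the 5′ end. Mouse Gata4, at chr14:63198914-63271712 (minus strand), had H3K4me3 and H3K4me1 at the start site 26441 bp inside the record and no mark within 1 kb of the other 2 start sites. Pig GATA4, at chr14:14858470-14938156 (plus strand), had H3K4me3 at 1 of its 5 start sites, at 15016 bp, and H3K4me1 at 4. An H3K4me1 peak of 7647 bp, at percentile 98.7 of the widths at pig start sites, covered the 5′ end of pig GATA4. The nearest H3K27ac to a start site was 21.3 kb away at mouse Gata4 and 36.9 kb away at pig GATA4.

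Gata5, like Gata3, had H3K4me3 alone within 1 kb of a start site in mouse. Mouse Gata5, at chr2:180325088-180335503 (minus strand), had 1 H3K4me3 peak of 3035 bp, from -0.682 to 2.35 kb, over both start sites, with the nearest H3K4me1 10.0 kb and the nearest H3K27ac 76.0 kb from a start site. Its H3K4me3 peak was the narrowest of the mouse members at their start sites, at percentile 27.2. Pig GATA5, at chr17:61824891-61834742 (minus strand), had an H3K4me3 peak of 1792 bp over its start sites and an H3K4me1 peak whose edge was 869 bp away. The nearest H3K27ac to a pig GATA5 start site was 236 kb away, the farthest of the 10 genes.

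H3K4me1 was the mark that covered most of 8 of the 10 gene bodies, the exceptions being mouse Gata3 and Gata5, where H3K4me3 covered more (22.1% and 22.6%). H3K4me1 covered 30.4% of mouse Gata6, against 68.8% of Gata2, 14.5% of Gata3, 26.5% of Gata4 and none of Gata5. In pig it covered 29.0% of GATA6, against 28.7% of GATA2, 33.2% of GATA3, 38.1% of GATA4 and 45.9% of GATA5. The median over all coding genes was 9.84% in mouse and 14.4% in pig. The order of the members differed between the species, with Gata2 highest in mouse and GATA5 highest in pig. H3K27ac covered 16.5% of mouse Gata2, 8.6% of pig GATA6 and 3.5% of pig GATA4, and none of the other 7 gene bodies. At pig GATA4 it lay over the 3′ end of the gene from 75.7 to 78.5 kb. The median H3K27ac coverage over all coding genes was 0.0% in mouse and 0.728% in pig, so a mouse gene body without it was common.

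**Figure D2:**
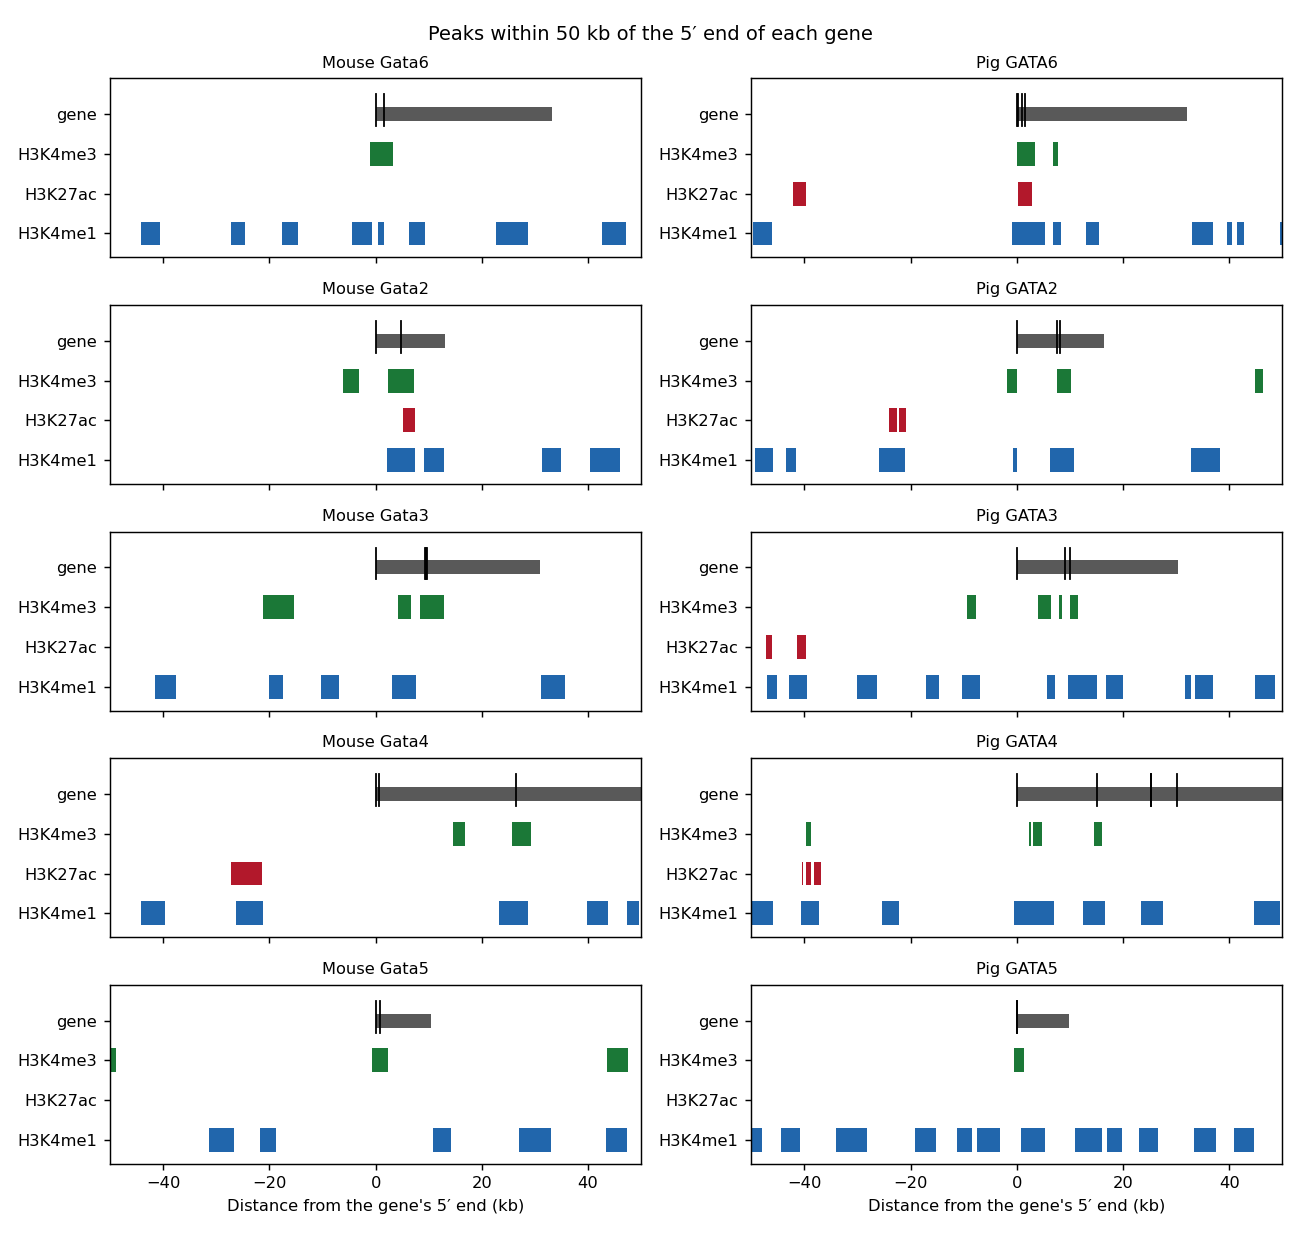
Peaks within 50 kb of the 5′ end of each gene, in mouse (left) and pig (right), as bars over the distance in kb along the direction of transcription. Grey bars are the genes, cut at 50 kb, and vertical ticks their start sites. H3K27ac (red) lay inside pig GATA6 and mouse Gata2, and within 50 kb outside pig GATA6, GATA2, GATA3 and GATA4 and mouse Gata4.

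Peaks were called distal where they shared no base with the 1 kb around any annotated start site or with an H3K4me3 peak, and were counted within 300 kb of a start site of the gene. Mouse Gata6 had 2 distal H3K27ac peaks, fewer than Gata2 with 3, Gata3 with 3, Gata4 with 3 and Gata5 with 4. The median of all mouse coding genes was 3 (quartiles 1 and 4), so Gata6 and the other 4 lay within the quartiles. The order turned with the distance: within 500 kb mouse Gata6 had 5, against 7 at Gata2, 4 at Gata3, 6 at Gata4 and 4 at Gata5. Counting only peaks with the member as nearest coding gene, Gata6 had 1, against 0 at Gata2, 2 at Gata3, 1 at Gata4 and 0 at Gata5. Pig GATA6 had 7, against 16 at GATA2, 4 at GATA3, 12 at GATA4 and 0 at GATA5, where the median of all coding genes was 3 (quartiles 1 and 6). Pig members thus spread from the 8.27 percentile of coding genes for GATA5 to the 98.2 percentile for GATA2, with GATA6 at 80.0. No distal H3K27ac was found at 21.0% of mouse and 16.5% of pig coding genes.

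**Figure D3:**
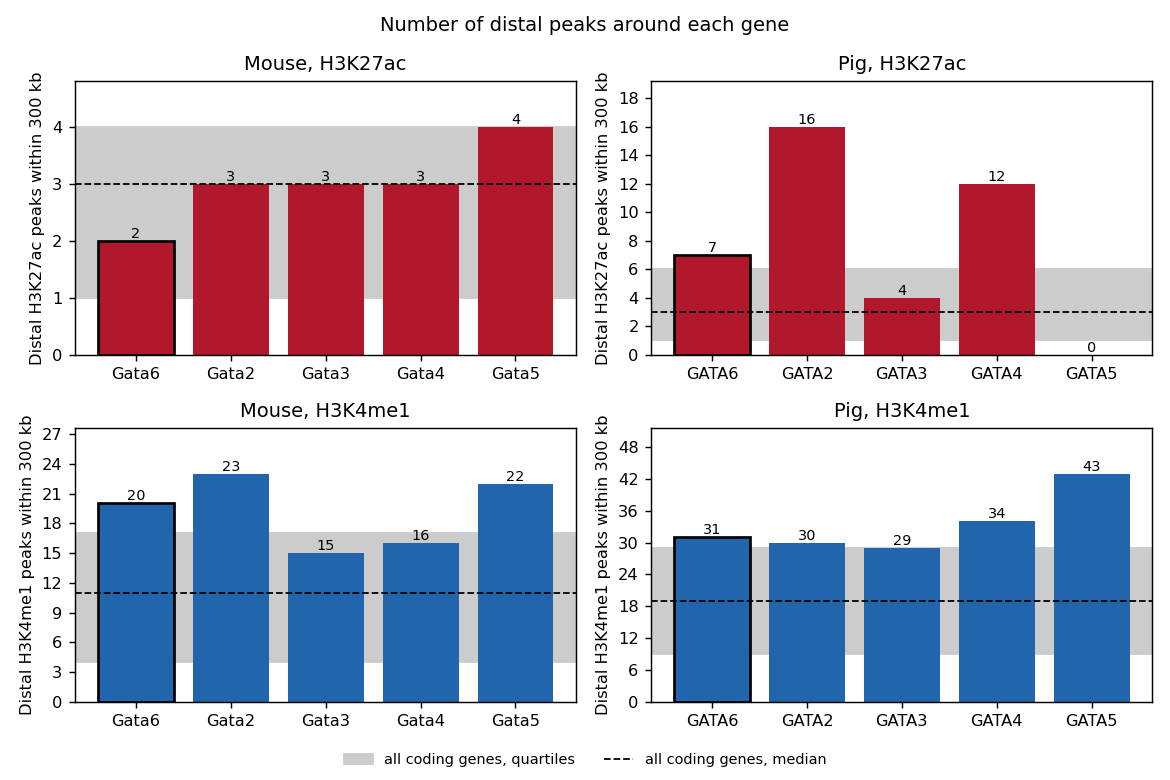
Number of distal H3K27ac (top) and H3K4me1 (bottom) peaks within 300 kb of each gene, in mouse (left) and pig (right), with Gata6 outlined. The grey band runs between the quartiles and the dashed line is the median of all coding genes. Mouse Gata6 had 2 H3K27ac peaks and pig GATA6 7, and H3K4me1 counts of all members were above the medians of 11 and 19.

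Gata6 had few coding neighbours. Mouse Gata6 had no other coding 5′ end within 300 kb, against 8 at Gata2, 5 at Gata3, 12 at Gata4 and 15 at Gata5, and a median of 9 over all coding genes. Its flanking genes were Mib1, a ubiquitin ligase of Notch signalling, 327 kb upstream and Rbbp8, a DNA repair gene, 581 kb downstream, both with all 3 marks at a start site. Pig GATA6 had 1, LOC100525229, against 10 at GATA2, 5 at GATA3, 9 at GATA4 and 19 at GATA5. The flank of pig GATA6 beyond that record was MIB1, 365 kb upstream. The flanking genes of the other members in mouse were Rpn1 and Dnajb8 at Gata2, Taf3 and Celf2 at Gata3, Blk and Neil2 at Gata4, and Slco4a1 and Rbbp8nl at Gata5, and 3 of these 8 (Rpn1, Taf3 and Celf2) had H3K27ac at a start site. In pig 3 of 8 had it (RPN1, TAF3 and LOC110255605), while DNAJB8, BLK, NEIL2, RBBP8NL and LOC110257484 did not.

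The 2 mouse Gata6 peaks lay almost evenly on each side. One of 1117 bp lay from -170 to -168 kb without H3K4me1 and was nearer to Mib1. The other, of 848 bp, lay from 169 to 170 kb with H3K4me1 and had Gata6 as its nearest coding gene. Of the 7 pig GATA6 peaks, 4 lay upstream and 3 downstream, and 5 shared bases with H3K4me1. The closest and widest of the 7, of 2405 bp, ran from -42.0 to -39.6 kb and had no H3K4me1. The nearest coding gene was taken over all annotated start sites, not over 5′ ends alone. On that measure the 4 upstream peaks were nearest to LOC100525229 and the 3 downstream ones to GATA6. Distal H3K27ac covered 1.97 kb in all at mouse Gata6 and 7.86 kb at pig GATA6.

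At Gata2, Gata4 and mouse Gata5, most distal H3K27ac peaks had another coding gene as the nearest, while at Gata3 most had Gata3. None of the 3 peaks of mouse Gata2 and none of the 16 of pig GATA2 had the member as nearest coding gene. Of the 16, 10 lay within EEFSEC, which encodes a selenocysteine elongation factor. The pig GATA2 pair between -24.1 and -20.8 kb, given above, did not meet the rule for distal peaks. That pair is not among the 16, of which the closest was 95.5 kb from a GATA2 start site. The 4 peaks of pig GATA3 all had GATA3 as the nearest gene, and 3 of them, between -73.9 and -39.6 kb, lay within TAF3, which encodes a TFIID subunit. At mouse Gata3, 2 of 3 peaks were nearest to it, and 1 of these lay within Taf3 from -53.1 to -50.4 kb. Of the mouse Gata4 peaks, 1 of 3 was nearest to it, a 5954 bp peak from -27.3 to -21.3 kb and the widest distal H3K27ac peak of the mouse members. Of the 12 pig GATA4 peaks 2 were nearest to it, of 205 and 1278 bp, between -40.4 and -36.9 kb. None of the 4 mouse Gata5 peaks was nearest to it.

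**Figure D4:**
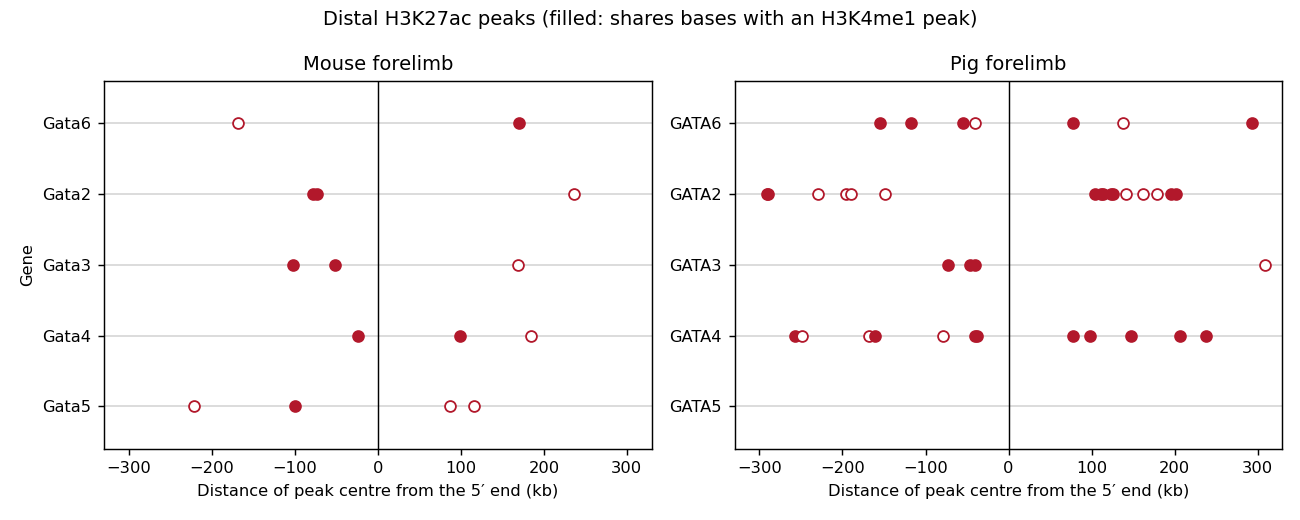
Position of each distal H3K27ac peak as the distance in kb of its centre from the gene's 5′ end, in mouse (left) and pig (right). Filled points share bases with an H3K4me1 peak and open points do not. The 2 mouse Gata6 peaks lie near -169 and 170 kb, pig GATA2 has a group between 104 and 202 kb, and pig GATA5 has none.

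H3K4me1 was the common distal mark of all members. Mouse Gata6 had 20 distal H3K4me1 peaks, against 23 at Gata2, 15 at Gata3, 16 at Gata4 and 22 at Gata5, and a median of 11 over all coding genes. Pig GATA6 had 31, against 30 at GATA2, 29 at GATA3, 34 at GATA4 and 43 at GATA5, and a median of 19. All members were above the median of coding genes. Mouse Gata6 was the nearest coding gene of 18 of its 20, against 1 of 23 for Gata2, 8 of 15 for Gata3, 5 of 16 for Gata4 and 3 of 22 for Gata5. Pig GATA6 was the nearest of 20 of 31, against 1 of 30 for GATA2, 17 of 29 for GATA3, 5 of 34 for GATA4 and 5 of 43 for GATA5. In both species Gata6 and then Gata3 had the highest of these shares. They also had the fewest other coding 5′ ends within 300 kb, 0 and 5 in mouse and 1 and 5 in pig. A share by nearest gene depends on this spacing, so it is not a measure of the marks alone. In pig, a peak nearest to any annotated start site of LOC100525229 does not count for GATA6. Pig GATA5 combined the most H3K4me1 peaks of the members with no distal H3K27ac. Its flanking genes LOC110257484 and RBBP8NL also had 0 distal H3K27ac peaks within 300 kb, so this was not particular to GATA5.

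The share of distal H3K27ac peaks with H3K4me1 over all genes lay within the counting interval of the share near the members in both species. In mouse 8 of 15 peaks shared bases with H3K4me1, or 53.3% (exact 95% binomial interval 26.6 to 78.7), and 48.1% of all 10095 distal H3K27ac peaks did. In pig 26 of 39 did, or 66.7% (49.8 to 80.9), and 72.2% of all 15794. The intervals cover counting error only. In the central 300 bases, 0 of the 2 mouse Gata6 peaks and 3 of the 13 of the other members held AGATAA or TGATAA on either strand, against 24.4% of all mouse distal H3K27ac peaks. In pig, 1 of the 7 GATA6 peaks and 4 of the 32 of the other members did, against 13.7%.

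Mouse distal peaks were then aligned to the pig genome within 300 kb of the same gene. Neither mouse Gata6 H3K27ac peak aligned, while 5 of the 13 of the other members did: 3 at Gata3, 1 at Gata2 and 1 at Gata5. None of these 5 alignments lay in a pig H3K27ac, H3K4me1 or H3K4me3 peak. The best was at Gata2, where 410 bases of the peak at -80.4 to -76.4 kb had 85.1% identity to pig sequence at -56.5 kb. Mouse H3K4me1 peaks aligned more often, 14 of 20 at Gata6 and 47 of 76 at the other members. The pig sequence was marked in 4 of these 14 at Gata6 and in 30 of the 47 at the others. The latter were 11 of 15 at Gata2, 4 of 9 at Gata3, 9 of 11 at Gata4 and 6 of 12 at Gata5. The pig sequence lay in pig H3K27ac for 1 at Gata6, the stretch printed above, for 3 at Gata2 and for 1 at Gata4. Peaks near other genes were not aligned, so no share over all genes stands beside these counts.

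Most of the marked pig sequences carried H3K4me1, and some carried H3K4me3 or H3K27ac too. Near Gata6, an intronic mouse H3K4me1 peak from 6.34 to 9.29 kb aligned over 206 bases with 86.9% identity to pig sequence that starts at 7.15 kb and had H3K4me3 and H3K4me1. The longest aligned stretch of the same mouse peak, of 581 bases with 83.3% identity at 9.04 kb in pig, had none of the 3 marks. At Gata3, a mouse peak from -10.2 to -6.97 kb aligned over 286 bases with 97.6% identity to pig sequence at -9.88 kb. That pig sequence had H3K4me1, and a separate aligned stretch of the same mouse peak, of 284 bases with 91.5% identity at -8.01 kb in pig, had H3K4me3 and H3K4me1. At Gata4, a mouse peak from -44.1 to -39.6 kb aligned over 304 bases with 77.0% identity to pig sequence at -39.4 kb, which had all 3 marks. At Gata2, a mouse peak from 238 to 241 kb aligned over 719 bases with 83.9% identity to pig sequence at 202 kb that overlapped H3K27ac and H3K4me1. Of the pig bases in this alignment, 115 lay in the H3K27ac peak, at its edge.

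H3K27ac at a start site was found at 10 of the listed relatives and partners of the GATA factors in each species, beside 1 of 5 members. All coding genes had it at 41.6% in mouse and 46.7% in pig. In mouse 14 of 16 had H3K4me3, 10 had H3K27ac and 9 had H3K4me1. In pig 12, 10 and 9 of the 15 matched genes did, with ZGLP1 not matched. In both species H3K27ac was at Trps1, the atypical GATA repressor of bone growth, at the GATA zinc finger genes Gatad1, Gatad2a and Gatad2b, at Lmo2 and Ldb1, which bridge GATA factors to their partners in blood, and at Tbx5, Hand2 and Mef2c of limb and heart. Tal1, the blood partner of Gata2, had it in mouse, while its nearest H3K27ac in pig was 52.5 kb away. Zfpm1 had its nearest H3K27ac 45.6 kb away in mouse and had it at a start site in pig. Zfpm2 and Gata1, the red cell factor, had it in neither. Gata1 had H3K4me3 in mouse, and none of the 3 marks at a start site in pig.

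Genes of the anterior-posterior axis of the limb, along which Gata6 acts, mostly had H3K27ac at a start site in mouse, where Gata6 had none. In mouse 10 of 10 had H3K4me3 and 9 had H3K27ac, and in pig 9 and 6. Over all coding genes the shares were 65.0% and 41.6% in mouse and 64.9% and 46.7% in pig. Shh, known to be held down by Gata6 in the mouse limb bud, had H3K4me3 and no H3K27ac at its start site in either species. Its nearest H3K27ac was 137 kb from a start site in mouse and 34.9 kb in pig. Whether Gata6 acts on Shh in these forelimbs was not tested. H3K27ac was present in both species at Ptch1, the Shh receptor, at the Shh effectors Gli1 and Gli3, at the BMP antagonist Grem1, and at the transcription factor genes Hand2 and Irx5. The anterior genes Alx4 and Pax9, and Irx3, had it in mouse but not in pig, where the nearest peaks were 16.6, 207 and 1.03 kb from a start site. Gata6 was the other way round, with the nearest H3K27ac 168 kb away in mouse and at the start site in pig.

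Markers of some other cell types are given beside these results. Of 6 blood markers, mouse had H3K4me3 at 6 and pig at 1, and H3K27ac was at Klf1 in mouse and at 0 of 6 in pig. Endothelial markers had H3K4me3 at 6 of 6 and 3 of 6, with H3K27ac at Erg alone in each species. Among surface ectoderm genes H3K27ac was at 1 of 6 in mouse (Trp63) and 1 of the 5 found in pig (EPCAM). It was at 0 of 5 heart and endoderm genes in mouse and 1 of 5 in pig (MYL7). Over all coding genes H3K4me3 was at 65.0% in mouse and 64.9% in pig, and H3K27ac at 41.6% and 46.7%. Among these markers, pig GATA1, KLF1, ALAS2, TEK, PECAM1, KRT5, TNNT2 and SOX17 had none of the 3 marks at a start site, nor had mouse Nkx2-5. The part of these cell types in the members' marks was not tested.

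Orthologs most like each member were taken as those with the same 6 start site calls and then the smallest sum of absolute differences in the 4 distal counts. The 6 calls of Gata6 were shared by 1117 of 14946 orthologs (7.47%), and those of Gata2, Gata3, Gata4 and Gata5 by 4.9%, 3.19%, 9.49% and 3.19%. Gata3 and Gata5 had the same 6 calls as each other. Nearest to Gata6 in the distal counts were Ascc2 and Nfe2l1, at a sum of 4, and Ano10, Gdap2 and Prpf40b, at 6. Ascc2 had 2 and 20 distal H3K27ac and H3K4me1 peaks in mouse and 9 and 29 in pig. For Gata2 the list was Ddx25, Pus3, Hic1, Ldlrad4 and Mocs1, at sums of 7 to 10. For Gata3 it was Top1mt, Chdh, Cops9, Flt1 and Esm1, at 2 to 4, and for Gata4 Nfix, Fam167a, Rnf181, Tmem150a and Ap1b1, at 4 to 6. For Gata5 it was Hmx1, Dmrt3, Ppargc1b, Scube1 and Tcfl5, at 7 to 9.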

How the data were processed

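Forelimbs of mouse and pig embryos were profiled for H3K4me3, H3K27ac and H3K4me1. Per the design text, chromatin was fixed with 1% formaldehyde, reads were aligned to GRCm38 or Sscrofa11.1, and the broad peak calls kept had an IDR below 0.01. Pig H3K27ac and H3K4me3 were sequenced at 50 bp, and pig H3K4me1 and all mouse libraries at 100 bp, then cropped to 50. Bowtie2 2.3.5, deepTools 3.5, SAMtools 1.9, Trimmomatic 0.39 and FastQC 0.11.9 are named in the submitters' processing notes, and the caller of the peaks is not named in the sources used here. The authors deposited peak positions with no score, signal or p-value, 1 list for each species and mark.

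Peaks were set on RefSeq genes with Python 3.11.15, numpy 2.4.6, pandas 2.3.3 and pysam 0.24.0. Distances run from the gene's 5′ end along transcription, with negative values upstream, and a distal peak's distance is to the nearest start site and peak edge. A width percentile is the share of peaks that are narrower, and percentiles of distal counts place ties at their middle. Alignment used blastn 2.17.0, with masked repeats and E values up to 1e-10. The functions were tested on simulated peaks. Alternatives were other start site windows, distances, peak widths and E values. Apart from the members, the genes named are those of fixed lists, the flanking genes and the 5 orthologs most like each member. One further marker list is not reported here. The members and lists were chosen with earlier results of these data known.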

Additional observations from a re-analysis of the deposited data

How the results depend on the processing

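Each result was recomputed with 1 choice changed at a time, and 30 of 51 alternative values stayed near the reported one. Values counted as near include H3K4me3 at 4 in place of 5 mouse members with the wider 50% of peaks. They also include the start site base alone in pig, where GATA3 had no H3K4me3 and GATA5 no H3K4me1. That left 4 pig members with each of these marks. With the 5′ end in place of all start sites, members with H3K4me3 numbered 2 in mouse and 3 in pig, mouse members with H3K4me1 numbered 1, and mouse members with H3K27ac numbered 0. Mouse H3K27ac at a member was also at 0 without a window around the start site and with the wider 50% of peaks, so the Gata2 call rests on the 1 kb window and on a narrow peak. With the wider 50% of peaks, pig members with H3K4me3 numbered 3. H3K27ac at pig GATA6 was found under every alternative tried. Distal H3K27ac peaks of mouse Gata6 numbered 0 within 100 kb, 5 within 500 kb, 1 with 5 kb left out around start sites, 1 where Gata6 was the nearest coding gene, and 0 with the wider 50% of peaks. The other mouse members' median was 5 within 500 kb and 0.5 where the member was nearest, so Gata6 was below the other members' median as reported and not in these. Mouse Gata6 stayed below that median within 100 kb (0 against 2) and with peaks under 1 kb apart joined (2 against 3). The same held with 5 kb left out around start sites (1 against 3) and with the wider 50% of peaks (0 against 2). For pig GATA6 the number was 3 within 100 kb, 3 where it was nearest and 3 with the wider peaks, against medians of 2, 1 and 4 for the other members. With an E value of 1e-20 or lower, 3 mouse H3K27ac peaks aligned. The cause of these changes was not tested. Leaving out a replicate was not possible because each list merges the samples. No paired analysis was possible because the lists carry no value for each replicate, and their depth limits what was called to an unknown degree.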
